A study of Mus musculus with 12 samples.

Results

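Heparan sulfate is a sugar chain that cells attach to a small set of core proteins, and 41 genes were taken as its core proteins and the enzymes that build, sulfate, edit and cut it. They were chosen by name, with earlier results of these data known. The list holds 12 core proteins, 5 enzymes of the linkage sugars and 5 of chain polymerization. A further 15 act in sulfation and epimerization, and 4 remove sulfate or cleave the chain. Of the 41 genes, 39 had a microarray probe set annotated to that gene alone, out of 22180 genes so measured in the series. Where a gene had several, the probe set with the highest mean over all mice was used, and the second probe sets of Gpc1, Sdc1, B4galt7, Glce and Hpse did not pass either (adjusted p 0.389 to 0.972). Ndst1 is not analysed here, and Hs3st3a1 had only probe sets shared with another gene and was not used.

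QT mice (labelled TIMPless) lack all 4 tissue inhibitors of metalloproteases in the whole body, and WT mice carry none of these alleles. By the study's methods, the Timp1 allele holds stop codons, and parts of Timp2, Timp3 and Timp4 are deleted. All mice were C57BL/6J, untreated and 4 wk old, with 6 QT and 6 WT mice and 1 array per mouse. Cartilage of the sternum without the xiphoid process was dissected out of frozen sternums, so neighbouring tissue could come with it. The question asked of these arrays was how gene expression in cartilage differs when metalloproteases are unchecked.

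Heparan sulfate chains grow in the Golgi on a linkage of xylose, galactose and glucuronic acid. Copolymerases of the EXT family extend them, and sulfotransferases then place sulfate groups in patterns that decide which growth factors the chain can hold. In cartilage the chains sit around the chondrocyte, mostly on perlecan, where they bind fibroblast growth factors such as FGF-2 and limit the spread of hedgehog proteins such as IHH. Outside the cell, the sulfatases SULF1 and SULF2 take 6-O-sulfate off finished chains, and heparanase cuts them.

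Values are log2 signals from the authors' robust multiarray average. It brings the probe signals of all arrays to the same distribution before they are combined into probe set values. The array medians lay between 6.15 and 6.2, and a gene whose mean lies below all of them is not shown to be above background, and its change is then inexact in size. In QT cartilage Timp2 lay at 8.83 to 9.35, Timp3 at 9.08 to 9.89 and Timp4 at 5.75 to 6.16, against 10.51 to 10.83, 10.59 to 11.18 and 6.54 to 8.15 in WT, with no overlap. Timp1 overlapped, at 8.61 to 9.67 in QT and 9.54 to 10.33 in WT, and all 4 genes were called lower. Of the 8 chondrocyte markers 0 lay under the array medians and 0 were called, with a list mean of 11.17 to 11.59 in QT mice and 11.44 to 11.84 in WT mice. The QT mean was lower in 7 of the 8, and 1 of them, Comp, had a limma adjusted p of 0.00138 at a fold of 1.43 (log2 change -0.52). Other tissues moved with genotype. The adipocyte markers had list means of 7.84 to 8.57 in QT mice and 8.76 to 9.86 in WT mice, with 6 of 7 called lower. The skeletal muscle markers ran at 8.18 to 9.31 in QT mice and 9.29 to 10.77 in WT mice, with 6 of 8 called lower. The osteoblast and osteocyte markers ran at 9.82 to 10.10 in QT mice and 8.79 to 9.66 in WT mice, with 2 of 6 called higher. Those were Dmp1 (log2 change 1.58) and Mepe (1.57). Ibsp, Alpl, Bglap and Sp7 were not called, with log2 changes of 0.22, 0.10, 0.02 and -0.10. Ihh alone was called, lower, among 3 hypertrophic chondrocyte markers (list means 10.78 to 10.94 in QT and 10.80 to 11.51 in WT), and 0 of 5 endothelial, 4 macrophage, 5 tendon and fibroblast and 6 neutrophil lineage markers were. The neutrophil lineage means were spread widely, at 8.75 to 11.37 in QT mice and 8.80 to 10.51 in WT mice. All 6 of these markers had a higher mean in QT, with list means of 10.43 in QT and 9.63 in WT. WT replicates 5 and 6 had low Xist (5.17 to 5.34) and high Eif2s3y (9.06 to 9.20), unlike the other 10 mice, so sex was not balanced between genotypes, and no source used here states it. In tissue of several cell types, fewer cells of a type and less RNA per cell cannot be told apart.

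In QT cartilage the 3-O-sulfotransferase gene Hs3st1 and the sulfatase gene Sulf2 fell and the sulfatase gene Sulf1 rose, although the Sulf1 call was lost in 9 of the 12 fits that left out 1 mouse. These 3 of the 39 measured genes were called, which took both a fold of 1.5 or more and an adjusted p under 0.05 in limma's moderated linear model over all probe sets. The share called lower was 5.13% (2 genes) against 1.43% of all 22180 genes, and 1 gene was called higher where 0.875% of all genes were. A further 4 genes, Gpc3, Extl1, Hs6st3 and Hs3st3b1, had lower means at an adjusted p under 0.05 but at folds below 1.5. With any fold, 7 members or 17.9% passed the adjusted p, against 4.93% of all genes. The QT and WT values of 6 members, or 15.4%, did not overlap, as was the case for 4.92% of all genes. These shares were not matched for signal level. Of the 39 members, 30 had at least 1 genotype mean not under the array medians. Of the 22180 genes, 12813 had a mean over all mice not under every array median. Across the list the means went both ways, with 21 lower and 18 higher in QT, and the median log2 change was -0.035 against -0.0017 over all genes. With the mean of the adipocyte markers as a covariate, the median of the list was -0.20, and that of the core proteins was -0.20 where it was 0.015 with genotype alone. With the mean of the skeletal muscle markers the 2 medians were -0.03 and -0.01. Both marker means went with genotype (squared correlations 0.7 and 0.674), and the median over all genes in these fits is not given here. The 3 called genes all act on the sulfate pattern, and of the 12 core protein genes and the 10 linkage and polymerization genes 0 were called, with 1 of each at an adjusted p under 0.05. Since only 1.43% of all genes were called lower and 0.875% higher, 0 calls in groups this small do not set these roles apart.

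**Figure D1:**
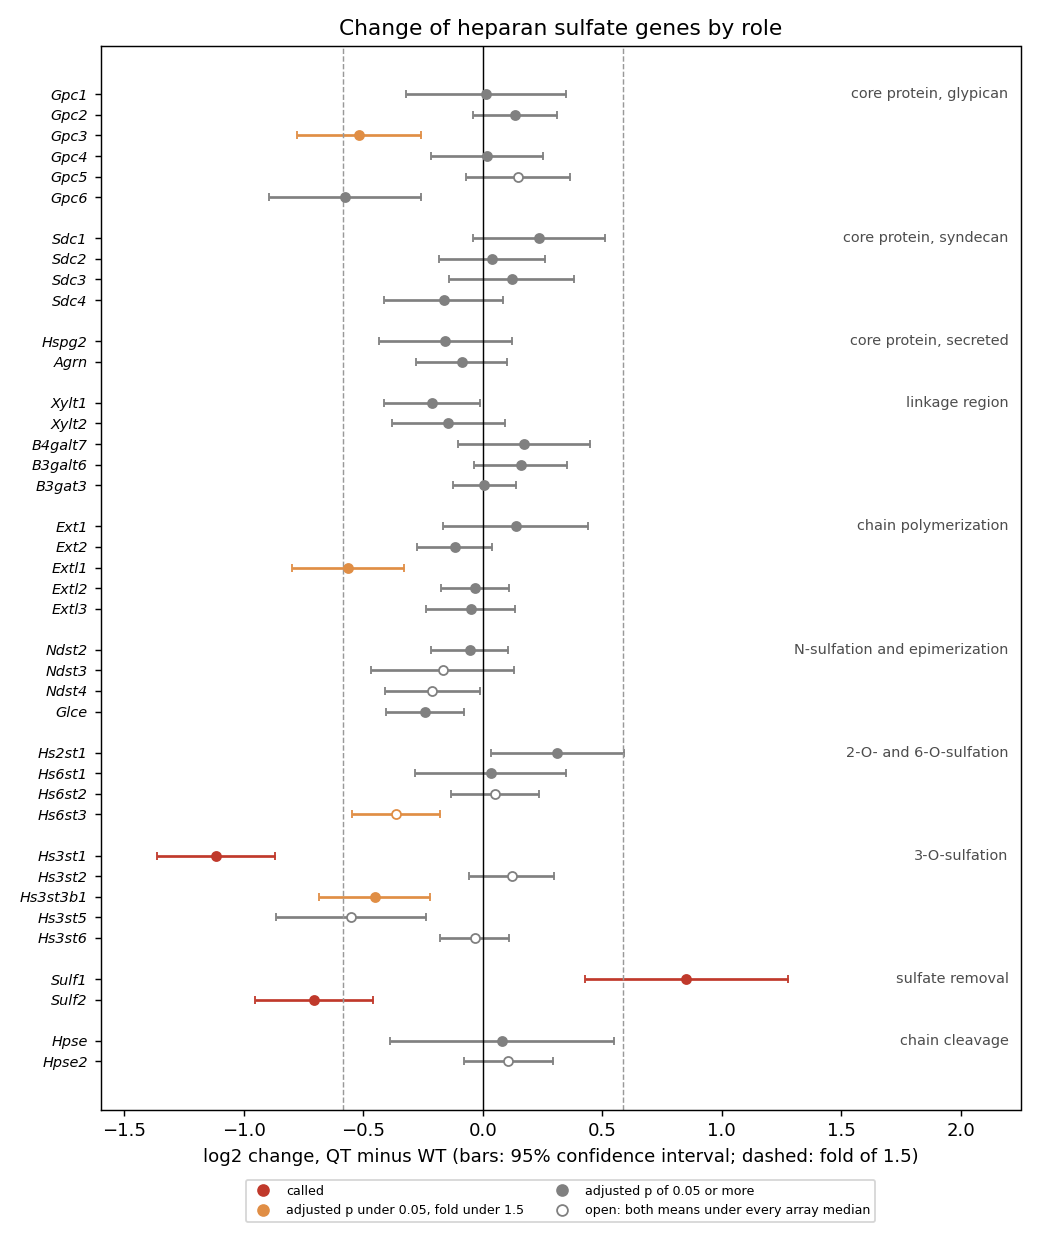
Log2 change (QT minus WT, x axis) of the 39 measured genes, grouped by role on the y axis, with 95% confidence intervals from limma and dashed lines at a fold of 1.5. Hs3st1 (-1.12), Sulf2 (-0.71) and Sulf1 (0.85) lie beyond the fold lines, and open points mark genes with both means under every array median.

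**Figure D2:**
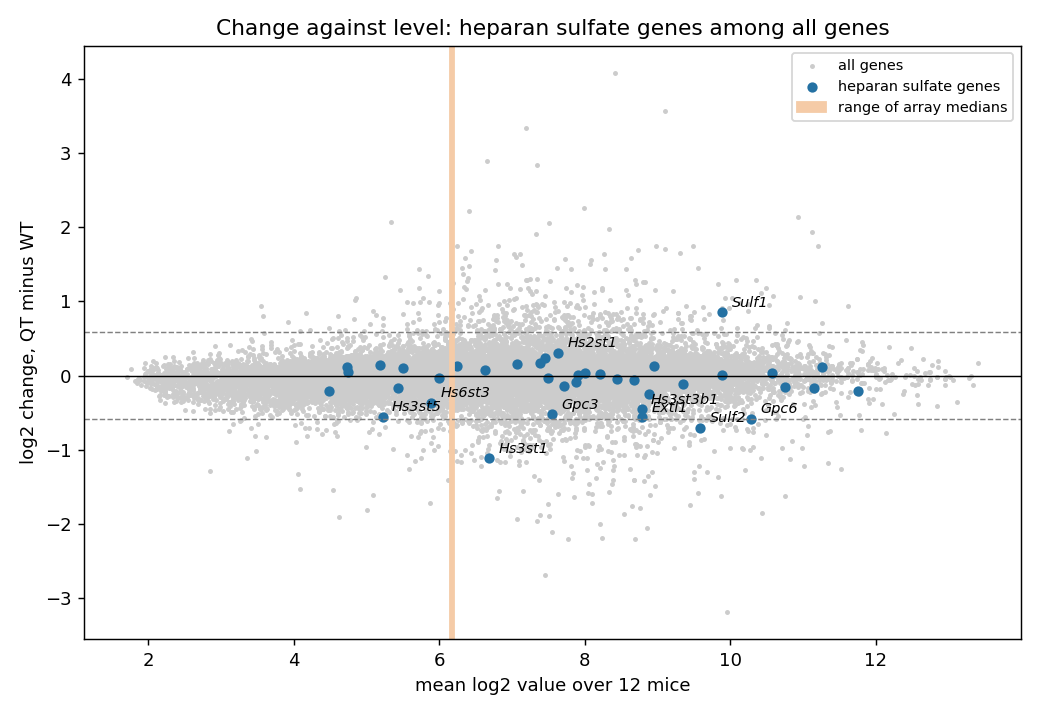
Log2 change (QT minus WT, y axis) against the mean log2 value over 12 mice (x axis) for all 22180 genes in grey and the 39 heparan sulfate genes in blue, with dashed lines at a fold of 1.5 and a band at the range of the array medians. Sulf1, Sulf2 and Hs3st1 lie outside the dashed lines, and 9 of the 39 genes have both genotype means below the band.

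The DNA just upstream, from RefSeq's promoter table (build GRCm38.p6), is shown for the called genes Hs3st1 and Sulf2. Sulf1, also called, had no entry there. Extl1 and Gpc3, which had the smallest adjusted p values of the members not called, are shown too. Each run is the 250 bases before an annotated start, 5′ to 3′ on the gene's strand, with GC boxes (GGGCGG or its reverse complement, a binding motif of SP-family factors) in capitals. Hs3st1 lies at chr5:39644632-39644881 on the minus strand, Gpc3 at chrX:52613975-52614224 on the minus strand and Extl1 at chr4:134372548-134372797 on the minus strand. Sulf2 has a pair of annotated starts, with windows at chr2:166155684-166155933 and chr2:166155286-166155535, both on the minus strand.
Hs3st1: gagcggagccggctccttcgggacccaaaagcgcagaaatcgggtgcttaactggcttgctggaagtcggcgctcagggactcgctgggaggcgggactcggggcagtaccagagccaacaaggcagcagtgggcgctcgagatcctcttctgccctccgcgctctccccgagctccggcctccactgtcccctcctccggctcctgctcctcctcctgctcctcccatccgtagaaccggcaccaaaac
Sulf2, start 1: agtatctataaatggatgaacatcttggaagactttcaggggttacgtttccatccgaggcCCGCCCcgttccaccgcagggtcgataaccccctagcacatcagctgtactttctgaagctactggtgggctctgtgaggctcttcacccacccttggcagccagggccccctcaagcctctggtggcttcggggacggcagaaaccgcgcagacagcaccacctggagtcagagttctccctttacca
Sulf2, start 2: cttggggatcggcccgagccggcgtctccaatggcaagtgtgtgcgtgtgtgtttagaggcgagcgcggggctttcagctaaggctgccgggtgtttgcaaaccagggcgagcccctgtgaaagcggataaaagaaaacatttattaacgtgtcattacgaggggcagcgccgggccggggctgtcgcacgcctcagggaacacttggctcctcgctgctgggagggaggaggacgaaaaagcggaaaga
Extl1: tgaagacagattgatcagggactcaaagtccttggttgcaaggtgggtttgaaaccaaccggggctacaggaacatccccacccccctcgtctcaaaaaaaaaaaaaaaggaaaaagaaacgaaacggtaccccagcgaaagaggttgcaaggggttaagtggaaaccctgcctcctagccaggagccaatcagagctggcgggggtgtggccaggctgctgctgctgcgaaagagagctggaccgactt
Gpc3: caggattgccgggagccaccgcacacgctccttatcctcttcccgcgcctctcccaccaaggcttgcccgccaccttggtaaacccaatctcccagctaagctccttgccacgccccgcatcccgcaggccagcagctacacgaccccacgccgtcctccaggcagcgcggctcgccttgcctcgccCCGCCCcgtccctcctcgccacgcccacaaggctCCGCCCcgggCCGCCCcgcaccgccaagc
The Gpc3 window held 3 GC boxes and the first Sulf2 window 1, whereas the second Sulf2 window, Hs3st1 and Extl1 held 0. Of all 32851 windows of this length in the table, 32.7% held at least 1 GC box, and of 35 windows from the 30 members that matched, 62.9% did. The motif consists of G and C alone, and these shares were not matched for base composition. The windows printed here held 53.2% (Extl1) to 71.6% (Gpc3) G and C, against a median of 52.4% over all windows. The GLI consensus TGGGTGGTC, searched on both strands, was in 0 of the 35 member windows and in 0.225% of all windows. No member window held both motifs, and a missing match says only that these letters are not in the window.

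Among the glypicans, core proteins tied to the membrane by a lipid anchor, Gpc3 and Gpc6 had lower means in QT cartilage and the other 4 stayed within 0.15 of WT on the log2 scale. Gpc3, which binds hedgehog ligands and restrains their signal, had QT values of 7.14 to 7.47 (median 7.29) and WT values of 7.48 to 8.16 (median 7.79). The genotypes did not overlap, although the highest QT and the lowest WT mouse lay side by side. The means were 7.30 ± 0.12 in QT and 7.82 ± 0.29 in WT (SD, n = 6 each), a log2 change of -0.52 (adjusted p = 0.0344 in limma, SE 0.12) at a fold of 1.43. WT replicates 1 and 3 were the highest at 8.16 and 8.13, and the adjusted p was under 0.05 in 3 of the 12 fits that left out 1 mouse. Gpc3 is X-linked, and without WT replicates 5 and 6 its log2 change was -0.53 at an adjusted p of 0.0939.
Gpc6, whose loss in humans causes the skeletal dysplasia omodysplasia, had QT values of 9.62 to 10.47 (median 9.88) and WT values of 10.35 to 10.94 (median 10.57). QT replicate 3, at 10.47, lay above WT replicates 5 and 6, at 10.35 and 10.42. Its log2 change of -0.58 (SE 0.15) came at a fold of 1.49 and a limma adjusted p of 0.05004, just outside both thresholds. It was named after its values were seen. With the arrays quantile-normalized again it was called (log2 change -0.61, adjusted p = 0.0415), whereas the adjusted p was not under 0.05 in 10 of the 12 fits that left out 1 mouse, and a fit with the mean of the skeletal muscle markers as a covariate gave -0.96 (adjusted p = 0.179). Gpc1 differed by 0.01 (95% interval -0.32 to 0.35) and Gpc4 by 0.02 (95% interval -0.22 to 0.25), so a change of 1.5-fold lies outside both intervals. Gpc2 differed by 0.13 and Gpc5 by 0.15, and Gpc5 lay under every array median.

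The syndecans, core proteins that span the membrane, did not pass, and neither did the secreted cores. Sdc3, Sdc4 and Sdc2 all lay far above the array medians, at QT means of 11.32, 11.07 and 10.59 and WT means of 11.20, 11.23 and 10.56. Sdc4, a focal adhesion co-receptor, spread more in QT mice (10.76 to 11.41) than in WT mice (11.15 to 11.34), a description without a test. Sdc1 had the largest difference of the group, with QT values of 7.26 to 7.95 (median 7.56) and WT values of 7.04 to 7.60 (median 7.32). Its log2 change was 0.24 (SE 0.13, limma adjusted p = 0.368), and the genotypes overlapped.
Hspg2, which encodes perlecan, the main heparan sulfate proteoglycan around chondrocytes, had QT values of 10.33 to 10.94 (median 10.70) and WT values of 10.50 to 11.24 (median 10.81). The log2 change was -0.16 (95% interval -0.44 to 0.12, limma adjusted p = 0.573), and the genotypes overlapped. This value moved both ways with the samples and the fit. It was -0.02 without WT replicates 5 and 6, -0.08 without WT replicate 6 and -0.09 without QT replicate 1. Without WT replicate 1 it was -0.22, and without QT replicate 2 it was -0.21. The adipocyte and muscle covariates gave -0.52 and -0.03. Agrn, which encodes agrin, differed by -0.09 (95% interval -0.28 to 0.10). Fgf2, the gene of the growth factor that perlecan holds, had QT values of 7.36 to 8.17 and WT values of 7.16 to 7.36 on the same arrays (log2 change 0.48, limma adjusted p = 0.0469). At a fold of 1.39 Fgf2 was not called, and the genotypes met at 7.36. Ihh, whose product binds heparan sulfate, had QT values of 7.17 to 7.64 and WT values of 8.09 to 9.19 (log2 change -1.11, limma adjusted p = 0.00243).

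The linkage region, built by 5 enzymes that heparan sulfate shares with chondroitin sulfate, had no gene that passed. Xylt1, the xylosyltransferase that starts the chain, had QT values of 11.41 to 11.91 (median 11.68) and WT values of 11.73 to 12 (median 11.88). The difference of -0.21 had an unadjusted p of 0.0392 and a limma adjusted p of 0.263. Its paralog Xylt2 differed by -0.15, the galactosyltransferase genes B4galt7 and B3galt6 by 0.17 and 0.16, and the glucuronyltransferase gene B3gat3 by 0.01. B3gat3 kept to narrow ranges, at 7.86 to 7.99 in QT mice and 7.76 to 8.0 in WT mice.
Of the 5 chain polymerization genes, only Extl1 passed the adjusted p. Extl1 encodes an EXT-like glycosyltransferase that can add sugars to the growing chain. Its QT values were 8.26 to 8.80 (median 8.50) and its WT values 8.89 to 9.28 (median 9.05), with no overlap. The means of 8.51 ± 0.22 in QT and 9.07 ± 0.17 in WT (SD, n = 6 each) gave a log2 change of -0.56 (adjusted p = 0.0136 in limma, SE 0.11) at a fold of 1.48. The adjusted p stayed under 0.05 in all 12 fits that left out 1 mouse (0.0089 to 0.0348), and in 5 of them the fold reached 1.5. Without WT replicates 5 and 6 the adjusted p was 0.0555 at a log2 change of -0.53. The polymerase itself is a complex of EXT1 and EXT2, whose genes differed by 0.14 (95% interval -0.17 to 0.44) and -0.12 (95% interval -0.28 to 0.04). Extl2 and Extl3, paralogs of Extl1, differed by -0.03 (95% interval -0.18 to 0.11) and -0.05 (95% interval -0.24 to 0.13).

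**Figure D3:**
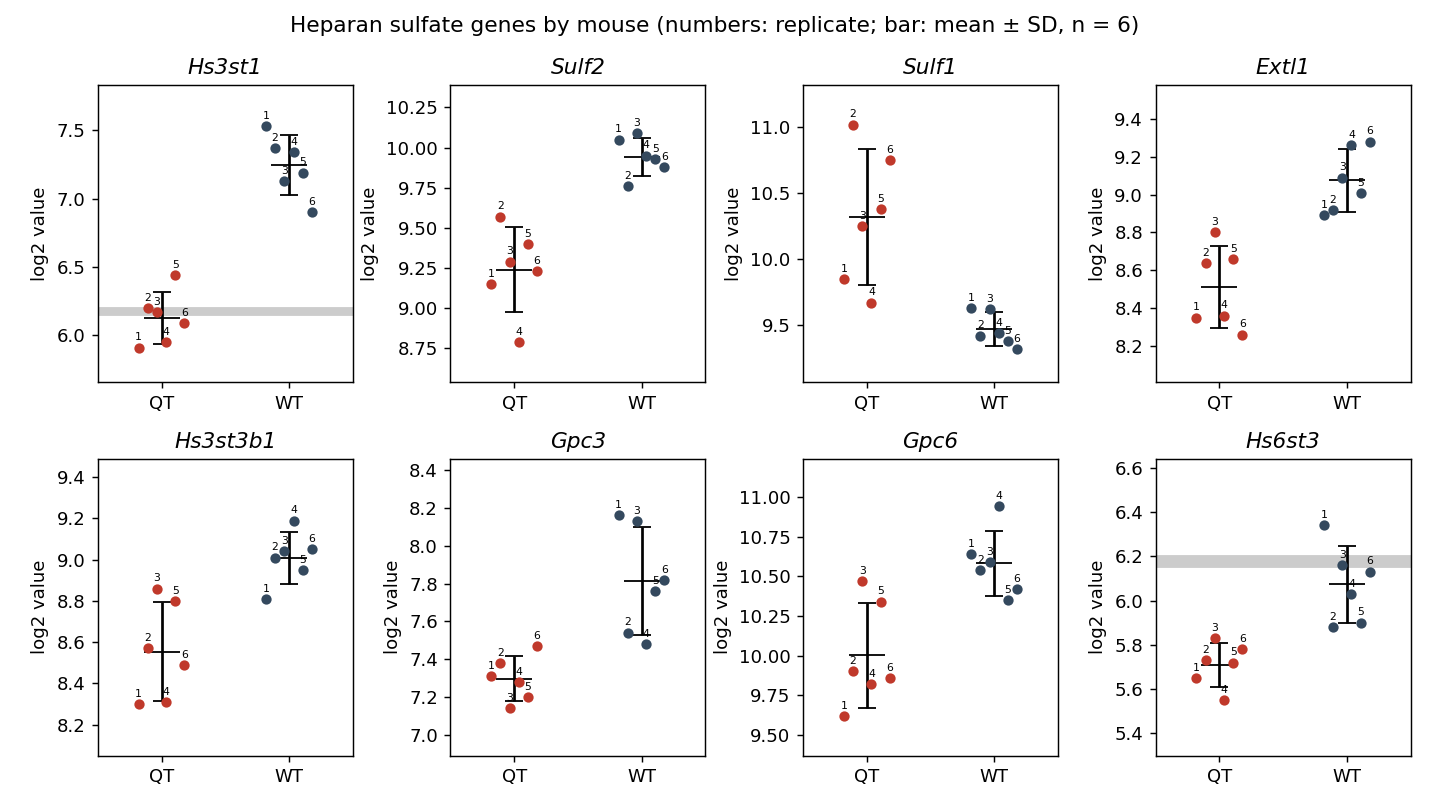
Log2 values (y axis) of 8 genes in the 6 QT mice (left) and 6 WT mice (right) of each panel, with the replicate number beside each point and the mean ± SD as a bar; each panel has its own range, and the grey band, where it falls in range, marks the array medians. Hs3st1, Sulf2, Sulf1, Extl1, Gpc3 and Hs6st3 have no overlap between genotypes, whereas Hs3st3b1 and Gpc6 overlap.

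The N-sulfation step and the epimerization step gave no gene that passed. Glce encodes the epimerase that turns glucuronic into iduronic acid. Its values of 8.60 to 8.89 in QT mice (median 8.78) and 8.84 to 9.10 in WT mice (median 9.04) overlapped through WT replicate 1 at 8.84. The difference of -0.24 (SE 0.07) had a limma adjusted p of 0.105. Ndst2, an N-deacetylase and N-sulfotransferase, differed by -0.06, with an interval of -0.22 to 0.11. Its paralogs Ndst3 and Ndst4 lay under every array median in both genotypes.
Among the 2-O- and 6-O-sulfotransferases, Hs2st1 and Hs6st3 had differences in opposite directions, and only Hs6st3 passed the adjusted p. Hs2st1, which sulfates iduronic acid, had QT values of 7.57 to 8.09 (median 7.72) and WT values of 7.05 to 7.74 (median 7.5). Its difference of 0.31 (SE 0.13) had an unadjusted p of 0.0311 and a limma adjusted p of 0.234, and it was named after its values were seen. WT replicate 1 held the lowest value, 7.05. Hs6st3, a 6-O-sulfotransferase, had QT values of 5.55 to 5.83 (median 5.72) and WT values of 5.88 to 6.34 (median 6.08). The groups did not overlap, and the log2 change was -0.36 (SE 0.09, limma adjusted p = 0.037) at a fold of 1.29. Both means lay under every array median, and the adjusted p was under 0.05 in 3 of the 12 fits that left out 1 mouse. Without WT replicates 5 and 6 the adjusted p was 0.0677 at a log2 change of -0.39. Hs6st1, the 6-O-sulfotransferase gene above the array medians, differed by 0.03 (95% interval -0.28 to 0.35).

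The 3-O-sulfotransferases add the rarest sulfate of the chain, the one that completes binding sites such as that for antithrombin, and they had the lowest median change of the 10 roles, -0.45 over 5 measured genes, of which Hs3st2, Hs3st5 and Hs3st6 lay under the array medians in both genotypes. Hs3st1, the gene of the enzyme that makes the antithrombin site, had QT values of 5.91, 6.2, 6.17, 5.95, 6.44 and 6.09 in replicates 1 to 6. Its WT values were 7.53, 7.37, 7.13, 7.34, 7.19 and 6.90. The highest QT mouse, replicate 5, lay well below the lowest WT mouse, replicate 6. Means of 6.13 ± 0.19 in QT and 7.24 ± 0.22 in WT (SD, n = 6 each) gave a log2 change of -1.12 (adjusted p = 0.000295 in limma, SE 0.11), a fold of 2.17. The QT mean lay just under every array median, so this size is not exact. When 1 mouse was left out, the log2 change ran from -1.19 to -1.06 and the adjusted p from 0.000232 to 0.0013, and without WT replicates 5 and 6 they were -1.22 and 0.000392.
Hs3st3b1, which makes a 3-O-sulfate that herpes simplex virus can bind, had QT values of 8.30 to 8.86 (median 8.53) and WT values of 8.81 to 9.19 (median 9.03). QT replicate 3, at 8.86, lay above WT replicate 1, at 8.81. The log2 change was -0.45 (SE 0.11, limma adjusted p = 0.0372) at a fold of 1.37, with an adjusted p under 0.05 in 3 of the 12 fits that left out 1 mouse. Without WT replicates 5 and 6 the adjusted p was 0.103 at a log2 change of -0.46. Its probes may also bind transcripts of Hs3st3a1, a close paralog. Hs3st5 differed by -0.55 (SE 0.14, limma adjusted p = 0.0568) but lay under every array median, at 4.58 to 5.32 in QT mice and 5.22 to 5.99 in WT mice, and was named after its values were seen. Hs3st2 and Hs3st6 differed by 0.12 and -0.04.

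The 2 sulfatases of the cell surface changed in opposite directions. Sulf2 had QT values of 9.15, 9.57, 9.29, 8.79, 9.40 and 9.23 in replicates 1 to 6 and WT values of 10.05, 9.76, 10.09, 9.95, 9.93 and 9.88. All QT mice lay below all WT mice. The means of 9.24 ± 0.26 in QT and 9.94 ± 0.12 in WT (SD, n = 6 each) gave a log2 change of -0.71 (adjusted p = 0.00493 in limma, SE 0.11), a fold of 1.63. Leaving out 1 mouse gave adjusted p values of 0.00364 to 0.0159, and without WT replicates 5 and 6 it was 0.0227.
Sulf1 had QT values of 9.85, 11.02, 10.25, 9.67, 10.38 and 10.75 in replicates 1 to 6, against WT values of 9.63, 9.42, 9.62, 9.44, 9.38 and 9.32. All QT mice lay above all WT mice, but QT replicate 4 lay just above the highest WT mouse and QT replicate 2 far above it. The means of 10.32 ± 0.52 in QT and 9.47 ± 0.13 in WT (SD, n = 6 each) gave a log2 change of 0.85 (adjusted p = 0.0325 in limma, SE 0.20), a fold of 1.80. Where leaving out 1 mouse ended the call, the adjusted p was 0.0505 to 0.0689, and the call held without QT replicate 1, 2 or 4. Without WT replicates 5 and 6 the adjusted p was 0.118 at a log2 change of 0.79. Within QT, replicate 2 had the highest value of both sulfatase genes and replicate 4 the lowest of both.
With the mean of the adipocyte markers as a covariate, the log2 changes were -1.02 for Hs3st1 (adjusted p = 0.159), -0.58 for Sulf2 (adjusted p = 0.419) and 1.02 for Sulf1 (adjusted p = 0.417). With the skeletal muscle markers they were -1.46 (adjusted p = 0.00843), -0.66 (adjusted p = 0.346) and 0.75 (adjusted p = 0.611). For Gpc3 they were -0.20 with the adipocyte and -0.25 with the muscle markers, and for Hs6st3 -0.21 and -0.33. In the same order they were -0.78 and -0.54 for Extl1, and -0.61 and -0.65 for Hs3st3b1. Gpc3, Extl1, Hs6st3 and Hs3st3b1 did not pass with either covariate (adjusted p 0.235 to 0.798). These marker means had squared correlations of 0.70 and 0.674 with genotype, which widens the errors of such fits, and the part of other tissues in the changes was not tested beyond them.

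Heparanase, the enzyme that cuts the chain between its sugars, did not differ between genotypes beyond its spread. Hpse had a log2 change of 0.08 (95% interval -0.39 to 0.55, limma adjusted p = 0.887). Its QT values spread from 5.87 in replicate 2 to 7.43 in replicate 1, and its WT values from 6.34 in replicate 1 to 6.94 in replicate 2. The neutrophil lineage markers were lowest among QT mice in replicate 2, at 8.75, and at 11.27 in replicate 1, and highest among WT mice in replicate 2, at 10.51. Their part in the spread of Hpse was not tested. Hpse2, a relative without cutting activity, lay under every array median, with QT values of 5.45 to 5.73 (median 5.51) and WT values of 5.28 to 5.73 (median 5.39). The genotypes overlapped, and the log2 change was 0.11 (SE 0.09, limma adjusted p = 0.563).

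Within a genotype, the same few mice were often the highest or the lowest across the genes. Of the 30 members with at least 1 genotype mean not under the array medians, QT replicate 2 was the highest QT mouse in 16, and QT replicates 1 and 4 were the lowest in 13 and 11. Over the 12813 genes whose mean over all mice was not under every array median, those shares were 25.2% for replicate 2 as the highest and 19.0% and 24.8% for replicates 1 and 4 as the lowest. Among WT mice, replicate 1 was the lowest in 19 of the 30 and replicate 6 the highest in 15, against 37.3% and 20.5% of those genes. The neutrophil lineage means of QT replicates 1 and 4 were the highest of the genotype, at 11.27 and 11.37, and that of replicate 2 was the lowest, at 8.75. WT replicate 1 had the highest adipocyte mean (9.86) and WT replicate 6 the highest chondrocyte mean (11.84), while their neutrophil lineage means were 8.84 and 10.13, low and high among WT mice. The part of these tissues in the shared variation was not tested. Among the genes that did not follow this order in WT mice were all 3 called genes and Gpc3, for which replicate 1 was the highest (Hs3st1, Sulf1, Gpc3) or second to replicate 3 (Sulf2), and replicate 6 was the lowest for Hs3st1 and Sulf1.

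**Figure D4:**
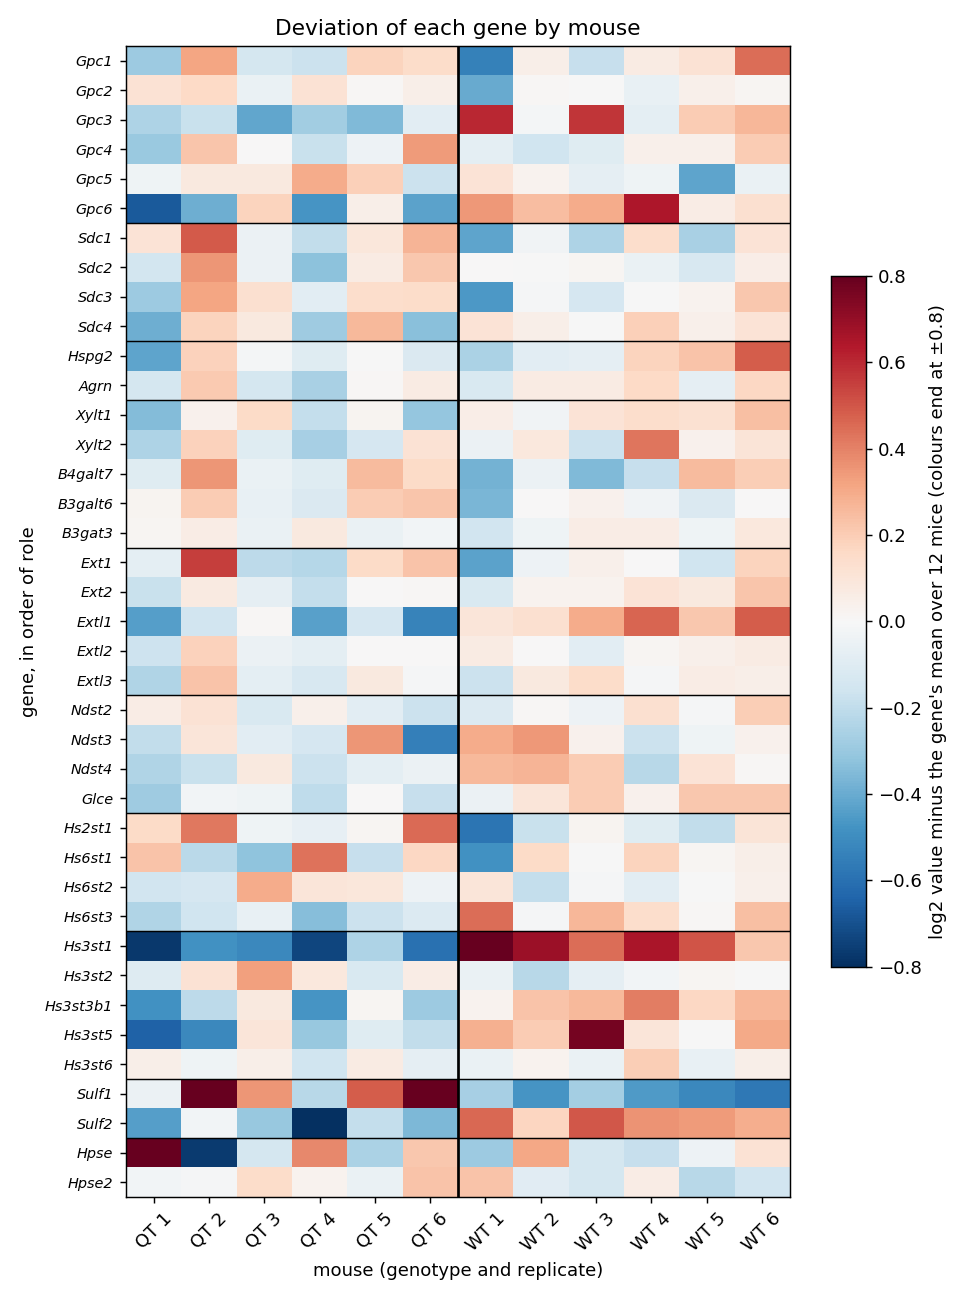
Each cell is the log2 value of a gene (rows, in order of role) in a mouse (columns, 6 QT then 6 WT) minus the gene's mean over the 12 mice, with colours that end at ±0.8. Hs3st1, Sulf2 and Extl1 are below 0 in nearly all QT mice and above 0 in WT mice, and the column of WT replicate 1 is below 0 for many other genes.

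A second list of 30 genes covers other proteoglycans that carry heparan sulfate, the supply of sulfate and sugar donors, the control of the linkage region, Hs3st4 and the lysosomal breakdown of the chain, and of its 28 measured genes 0 were called. Of all genes, 1.43% were called lower and 0.875% higher, so 0 calls in a list of this size is near those shares. At an unadjusted p under 0.05 there were 7, or 25%, where 20.5% of all genes were. Idua, the lysosomal enzyme that takes off iduronic acid, had QT values of 8.26 to 8.53 (median 8.39) and WT values of 8.54 to 8.80 (median 8.65), a log2 change of -0.26 (adjusted p = 0.0538 in limma). Fam20b, the kinase that phosphorylates the first xylose, had QT values of 9.53 to 9.97 (median 9.86) and WT values of 9.99 to 10.35 (median 10.20), a log2 change of -0.34 (adjusted p = 0.0549 in limma). Neither gene overlapped between genotypes, yet both missed the threshold. In the supply of sulfate donor, Papss2 differed by -0.18 and the sulfate transporter gene Slc26a2 by -0.09, and of the 12 measured supply genes 0 were called, again near the shares of all genes. The median log2 change of the 28 genes was -0.04, against -0.0017 over all genes.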

How the data were processed

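RNA of sternal cartilage from 6 QT and 6 WT mice was hybridised to Affymetrix Mouse Gene ST arrays, 1 per mouse. The deposited values are log2 signals that the authors made by RMA in Partek (version 6.6, per the submitters' processing notes), with background correction and quantile normalization; no source used here states the genome build behind the probe annotation. Values carry 2 decimals, and the number of arrays limits the precision. Of the 41345 probe sets, 23521 have 1 gene symbol, 1820 several and 16004 none, and only probe sets with 1 symbol named genes.

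Genotype was fitted with limma 3.58.1 in R 4.3.3 (lmFit and eBayes, 10 residual and 2.93 prior degrees of freedom) on all probe sets, with Benjamini-Hochberg adjustment over all of them. The script was tested on simulated data. Mice are the replicates. Described in full are members called, members at an adjusted p under 0.05, the largest change in any role without these, and the 2 related genes with the smallest adjusted p when none was called. Gpc6, Hs2st1, Hs3st5 and Hpse were added after their values were seen. The members and lists were chosen with earlier results of these data known. Alternatives covered scaling, filtering, fold threshold, variance model, multiple-testing method, probe set choice, tissue covariates, the replicate block and leaving out mice. Replicate numbers did not pair the mice. Promoter sequences are from RefSeq (GRCm38.p6).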

Additional observations from a re-analysis of the deposited data

Results flagged for a closer look

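In 4 of the 82 sets of 6 values examined (the 39 members, Idua and Fam20b, each genotype apart), 1 mouse lay far from the other 5 by Dixon's criterion, which chance meets in about 1 set in 20. Gpc2 was at 5.84 in WT replicate 1, against 6.18 to 6.28 in the other WT mice. Hs6st1 was at 7.52 in the same mouse, against 8.0 to 8.18. Gpc5 was at 4.76 in WT replicate 5, against 5.11 to 5.29, all under the array medians. Fam20b was at 9.53 in QT replicate 1, against 9.81 to 9.97 in the other QT mice.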

How the results depend on the processing

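With genotype alone, 665 probe sets, 3 heparan sulfate genes and 0 related genes were called. Dropping the fold threshold gave 1449 probe sets and 7 heparan sulfate genes. A replicate block gave 423 probe sets, where Sulf1 had an adjusted p of 0.101 and Hs3st1 and Sulf2 stayed called (0.0114 and 0.0448), and Gpc3, Extl1, Hs6st3 and Hs3st3b1 had 0.111, 0.0809, 0.112 and 0.101; same-numbered mice did not deviate together (correlations -0.21 to -0.01), so the numbers are only names. The adipocyte covariate left 17 probe sets and 0 heparan sulfate genes, and the skeletal muscle covariate 53 and 1. Sdc1 turned to -0.12 with the adipocyte and Hpse2 to -0.0089 with the muscle covariate, neither called before or after. Leaving out 1 mouse gave 515 to 664 probe sets, 2 to 5 heparan sulfate genes (5 without QT replicate 3) and 0 to 0 related genes. Apart from these 2 genes, the named genes kept their direction under every alternative run, with 373 values on the same side of the call (adjusted p and fold together), 14 newly called and 16 no longer called. Without low probe sets Hs6st3, Hs3st5 and Hpse2 could not be fitted. The causes of these shifts were not tested.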

Other observations

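In the second list of heparan sulfate genes, serglycin (Srgn), the proteoglycan of blood cell granules, had QT values of 9.26 to 10.03 and WT values of 9.06 to 9.61, and its log2 change was 0.46 (adjusted p = 0.104 in limma). It was lowest among QT mice in replicate 2 and highest among WT mice in replicate 2, the mice with the lowest and the highest neutrophil lineage means of their genotype. Ugdh, the enzyme that makes the glucuronic acid donor, had QT values of 10.41 to 10.69 and WT values of 10.18 to 10.39 with no overlap, and its log2 change was 0.25 (adjusted p = 0.0732 in limma). Both were singled out after their values were seen, and neither was called.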
